A study of Mus musculus with 8 samples.

Results

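The genes described here are those of glutathione, thioredoxin and superoxide defence, chosen by their symbols from the annotation of the Affymetrix Mouse Genome 430 2.0 array. They are the glutathione transferases (Gst and Mgst genes), the glutathione peroxidases (Gpx), the peroxiredoxins (Prdx), the thioredoxin genes (symbols that begin with Txn), the glutaredoxins (Glrx), Sod1, Sod2, Sod3, Cat, Srxn1, Gclc, Gclm, Gss, Gsr, Nqo1, Nfe2l2 and Keap1. The rule found 129 probe sets of 68 genes, out of 34958 probe sets that name a single gene, 18194 genes in all. A further 10 probe sets matched the rule but name a second gene as well and were left out. They name Prdx1 with Gm21399 (5 probe sets), Glrx3 with Gm12669 (4) and Gsta1 with Gsta2 and Gm3776 (1), so that Prdx1 and Gsta1 are not among the genes described, and Glrx3 and Gsta2 were read by 1 probe set each.

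Total RNA came from normal cochleas of 8 CBA/CaJ mice, which form 1 group, with the ears of a mouse pooled and 1 array per mouse. Each mouse was killed with urethane given into the peritoneum (300 mg/kg) and blood was cleared by saline passed through the heart; the soft tissue inside the bony shell (modiolus, organ of Corti and spiral ligament) was then collected. The labels give no age or sex and no treated group, so the data allow the level of each gene and its variation between mice, and no comparison of conditions. In such a mixed tissue, fewer cells of a type and less RNA per cell cannot be told apart. Signals are MAS5 intensities in arbitrary units, scaled alike on every array.

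Cells meet superoxide and hydrogen peroxide from mitochondria and oxidases with a chain of enzymes. Superoxide dismutases turn superoxide into hydrogen peroxide, and catalase, glutathione peroxidases and peroxiredoxins reduce the peroxide. The peroxidases and peroxiredoxins draw on glutathione or thioredoxin, which glutathione reductase and the thioredoxin reductases return to their reduced form with NADPH. Glutathione transferases couple glutathione to electrophiles such as the aldehydes of lipid peroxidation, and the transcription factor NFE2L2 (NRF2), held back by KEAP1, drives many of these genes through a DNA sequence called the antioxidant response element. In the cochlea these enzymes are known for their part in protection from noise, aminoglycosides, cisplatin and ageing.

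The core of that element, TGACNNNGC, was searched on both strands of the RefSeq promoter windows (GRCm38.p6, from 250 bases before to 50 after the start of a gene). It occurs in 12 of 83 promoters of the defence genes (14.5%), against 12.4% of 32851 promoters of all genes, and in 12 of the 61 defence genes with a promoter in the table (19.7%), against 14% of 27025 genes. The 12 genes are Gclm, Gsta3, Gstm5, Gstm7, Mgst1, Nfe2l2, Sod1, Srxn1, Txndc11, Txndc2, Txndc5 and Txnrd1. A match is a description of these letters and not a known site; promoters of Gsta4, Gclc, Gsr, Gstt2, Sod3, Txnl1 and Txnl4a were not analysed here. The 7 windows below show the regulator Nfe2l2 and its standard targets Gclm and Txnrd1, the dismutase Sod1, and 3 transferases in which 1 mouse stood apart (Gsta3, Gstm5 and Mgst1); those of the other 5 genes, Srxn1 among them, are not printed. They are given 5′ to 3′ in the direction of the gene, with the match in capitals (a match on the opposite strand begins with GC and ends with GTCA):
Gclm: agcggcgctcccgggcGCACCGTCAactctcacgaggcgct
Gsta3: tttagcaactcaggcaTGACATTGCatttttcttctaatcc
Gstm5: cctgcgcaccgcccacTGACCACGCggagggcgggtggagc
Mgst1: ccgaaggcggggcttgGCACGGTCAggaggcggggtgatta
Nfe2l2: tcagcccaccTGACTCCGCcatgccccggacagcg
Sod1: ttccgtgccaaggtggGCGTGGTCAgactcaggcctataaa
Txnrd1: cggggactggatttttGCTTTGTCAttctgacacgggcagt
The windows lie at chr3:122245407-122245447 (plus strand, Gclm), chr1:21240448-21240488 (plus, Gsta3), chr3:107895796-107895836 (plus, Gstm5), chr6:138140455-138140495 (plus, Mgst1), chr2:75704879-75704913 (minus, Nfe2l2), chr16:90220690-90220730 (plus, Sod1) and chr10:82859098-82859138 (plus, Txnrd1). The first base of the match is at position -134 from the start of Gclm, -121 of Gsta3, -42 of Gstm5, -56 of Mgst1, -240 of Nfe2l2, -56 of Sod1 and -92 of Txnrd1.

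Every trimmed mean was 500, the ratios of 3′ to 5′ probe sets ran from 1.39 to 1.54 for Gapdh (highest in mouse 1) and from 1.86 to 2.23 for actin, and the correlation of log2 signals between arrays over the detected genes ran from 0.962 to 0.990. The background threshold, the 95th percentile of the signals of genes that the ear should lack (smell and pheromone receptors, genes of other organs), lay between 40.1 (mouse 7) and 88.1 (mouse 5), and 284 (mouse 6) to 647 (mouse 1) probe sets of an array read under 1. Markers of the labelled tissue were present: 10 of 10 spiral ligament fibrocyte genes were above the threshold on all arrays (Coch 11569.7 to 15616, median 14679.9), as were 7 of 12 hair cell genes, whereas Pou4f3, Cdh23 and Atoh1 were above it on no array. Mouse 1 stood apart from the rest over all genes, and mice 5, 1 and 6 carried markers of other tissues; their values are given beside the results they touch.

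Nearly all arms of the defence were measured in every mouse. Of the 68 genes, 58 (85.3%) were above the background threshold on all 8 arrays, against 62.6% of all genes. On no array above it were 7 (10.3%), against 24.2% of all genes. These were Gpx5, the epididymal glutathione peroxidase (0.5 to 2.0, median 1.1), Txndc2 (13.6 to 24.5, median 17.3) and Txndc8 (8.3 to 25.3, median 15.6), the thioredoxins of spermatids, the transferases Gstm3 (2.0 to 29.8, median 12.8), Gstp3 (9.8 to 59.1, median 26.3) and Gstt4 (9.6 to 48.5, median 25.2), and Glrx3 (7.8 to 39.1, median 25.6), the cytosolic iron-sulphur glutaredoxin, whose 4 other probe sets were not used. Another 3 genes were above the threshold on some arrays, Mgst2 on 5, Gsto2 on 4 (52.6 to 75.8, median 55.2) and Gstm6 on 1 (20.9 to 43.0, median 33.5).

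The spread between mice was small. The median SD of the log2 signal over 8 mice was 0.15 in the 58 detected genes, with a range from 0.056 (Sod2) to 0.63 (Gsta3), and it was 0.18 in all 11388 detected genes. The defence genes had a median signal of 1604 and all detected genes one of 766, and the SD falls as the signal rises. Over the interquartile range of the defence genes' signals, 28 defence genes had a median SD of 0.157 and all 4715 detected genes one of 0.149, so the smaller spread was not seen at matched signal. The highest mouse was under 1.5 times the lowest in 42 of 58 genes (72.4%), against 56.2% of all detected genes. It was over 2 times the lowest in 5 (8.62%; Gsta3, Gsto1, Gstt2, Txnrd3 and Txndc11), against 10.9%. Mouse 1 widened the spread of the defence genes and of the rest: without it the median SD was 0.12 in the defence genes and 0.15 in all detected genes, the range was under 1.5 times in 50 defence genes (86.2%, against 73.7%), and it was over 2 times in 2 (3.45%, against 6.51%), Gsta3 and Gsto1.

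**Figure D1:**
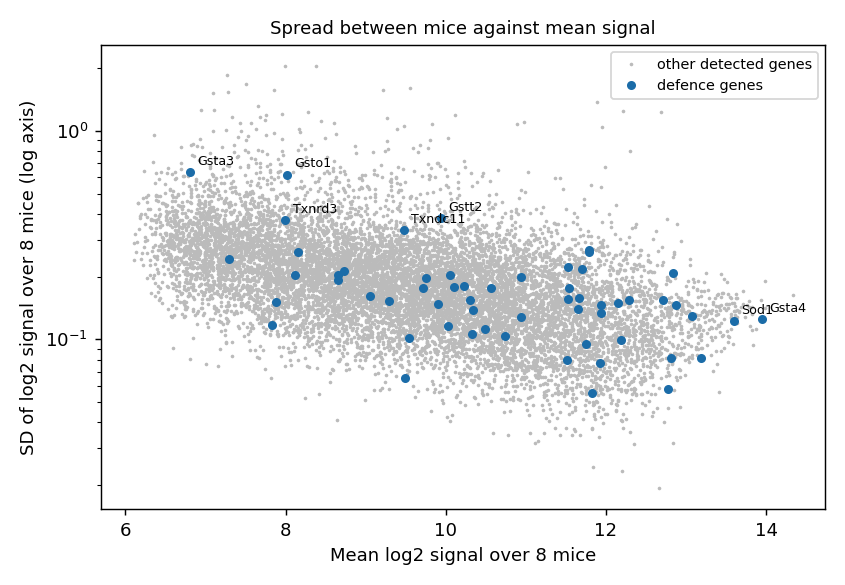
SD of the log2 signal over 8 mice (y axis, log scale) against the mean log2 signal (x axis) for the 58 detected defence genes (blue) and the other detected genes (grey). Sod1 and Gsta4 sit at the right with an SD of 0.12 and 0.13, and Gsta3 (0.63) and Gsto1 (0.62) sit highest among the defence genes.

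Among the superoxide dismutases and catalase, all 4 genes were detected. Sod1, the cytosolic copper and zinc enzyme, gave 13156, 12059, 13346, 12288, 12765, 11765, 10529 and 13692 in mice 1 to 8, a mean of 12450 ± 1019.9 (SD, n = 8). Mouse 7 was the lowest and mice 8, 3 and 1 were the highest. Sod2, the mitochondrial manganese enzyme, ranged over 3453 to 3854 (median 3608), the smallest spread of the detected defence genes, although its other probe sets spread more (below). Sod3, the extracellular enzyme, measured 363, 312, 237, 289, 239, 265, 268 and 263, with mouse 1 at the top and the other 7 mice within 237 to 312. Cat, the peroxisomal catalase, stood at 2374, 3174, 3885, 3454, 3356, 3597, 3370 and 3673. Mouse 1 was the lowest, at 0.678 times the mean of the other mice, and the next lowest was mouse 2 (3174).

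The glutathione transferases were the largest family and held the 3 most variable of the detected defence genes, Gsta3, Gsto1 and Gstt2. Of 20 cytosolic and kappa genes 15 were detected, with a median SD of 0.18 (log2). Gsta4, whose enzyme conjugates 4-hydroxynonenal from lipid peroxidation, gave 17690, 15829, 17382, 15612, 15884, 14685, 13576 and 16592, a mean of 15906 ± 1355 (SD, n = 8) and an SD of 0.13 on the log2 scale. Mouse 7 was the lowest, as for Sod1, and mice 1 and 3 were the highest. Gsta2 ranged over 4239 to 5222 (median 4687) and Gstk1, the kappa class enzyme of mitochondria and peroxisomes, over 2962 to 4198 (median 3156). Gstp1, the pi class enzyme that also binds the kinase JNK, measured 10009, 6933, 7286, 7681, 7379.5, 6691, 6189 and 6806. Its mouse 1 was 1.43 times the mean of the others, and the next highest was mouse 4 (7681).

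The mu class was detected in 5 of 7 genes. Gstm1 gave 3880.2, 2978, 2513, 2862, 3422, 2968, 2719 and 2445, with mice 1 and 5 high and mouse 8 low. Gstm2 ranged over 2647 to 3913 (median 2859) and Gstm5, a form known from brain and testis, over 4491 to 6446 (median 4887); in both mouse 1 lay above the rest. Gstm4 measured 333, 351, 300.4, 194, 300.3, 262, 297 and 277, where mouse 4 was low and the other mice lay between 262 and 351. Gstm7 ranged over 454 to 620 (median 539). In the theta class, Gstt2 varied most, with 1534, 1200.3, 709.8, 677, 997, 965, 1039 and 991. Its mouse 1 was high and its mice 3 and 4 were low, 2.27-fold from lowest to highest. Gstt1 ranged over 1006 to 1491 (median 1168), Gstt3 over 671 to 829 (median 757) and Gstz1, the zeta enzyme of tyrosine breakdown, over 533 to 692 (median 647). Of the microsomal transferases, Mgst1 stood at 2328, 3565, 4192, 3652, 3522, 3738, 3696 and 4104, with mouse 1 at 0.616 times the mean of the others, and Mgst3 at 1025, 901, 759.7, 769.5, 862, 722, 773 and 939.9.

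Glutathione synthesis and recycling had a median SD of 0.148 (log2), near the 0.154 of all detected defence genes. Gclc, the catalytic subunit of the rate-limiting glutamate cysteine ligase, gave 329, 414, 379, 429.6, 469, 472, 406 and 343, with mouse 1 lowest and mice 5 and 6 highest. Gclm, its modifier subunit, ranged over 673 to 768 (median 723), a 1.14-fold difference between mice. The other probe set of Gclm varied 1.38-fold (268 to 371). Gss, the synthetase of the second step, measured 202, 240.2, 244, 258, 272, 232, 236 and 203. Gsr, which reduces oxidised glutathione, measured 3819, 3899, 4048, 3285, 4006, 4407, 3617 and 4474, with mouse 4 lowest. All 4 genes were detected, and in none was a single mouse far from the rest. The second probe sets varied 1.55-fold for Gclc, 1.45-fold for Gss and 1.94-fold for Gsr, the last above the threshold on 7 arrays.

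Of 8 glutathione peroxidases 7 were detected, with a median SD of 0.15 (log2). Gpx1, the widespread cytosolic selenoenzyme whose loss is known to raise noise damage in mice, ranged over 3783 to 5048 (median 4681). Gpx2, the form known from the gut lining, ranged over 6711 to 8095 (median 7039). Gpx3, the secreted plasma form, gave 10159.8, 8585, 8820.1, 8802, 7818, 8187, 7715 and 9218. Gpx4, which reduces lipid peroxides in membranes and guards against ferroptosis, varied 1.16-fold between mice (3630.1 to 4199, median 3823). Its brighter _x_at probe set varied 1.47-fold (7936 to 11675), with mouse 1 highest. Gpx6, known from the olfactory lining, measured 365, 456, 359.6, 372, 346, 381, 466 and 501, and its 3 highest mice, 8, 7 and 2, stood apart from the other 5, which lay between 346 and 381. The endoplasmic reticulum forms were Gpx7 (334 to 491, median 438) and Gpx8, which gave 5161, 3673, 3372, 2926, 4079.7, 3122, 3196 and 3116 and was highest in mouse 1, at 1.54 times the mean of the others.

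By the probe sets used, the peroxiredoxins were even. Prdx2, the cytosolic form that is abundant in red cells, gave 9147, 9153, 10178, 9612, 8836, 9711, 8554 and 9646, a 1.19-fold difference between mice. A dimmer probe set of Prdx2 varied 1.80-fold (118 to 211). Over the same arrays the hemoglobin gene Hbb-b2 ran from 1254 (mouse 7) to 9512 (mouse 6), and the sum of 14 erythroid genes from 1437 to 13530 (1 of the 14 above the threshold on all arrays, and Hba-a1, Epb42 and Tspo2 on none). Prdx3, the mitochondrial form, measured 1881, 1897, 2003, 1644, 2119, 2192, 1974 and 2064, and Prdx4, the form of the endoplasmic reticulum, 2628, 3403, 3572, 3296, 3501, 3057, 3294 and 3170.3, with mouse 1 lowest. An _x_at probe set of Prdx4 varied 1.79-fold, with 1493 in mouse 1 and 2387 to 2672 in the others. Srxn1, the sulfiredoxin that repairs over-oxidised peroxiredoxins, gave 2357, 2126, 1654, 2247, 2080.4, 1664, 1918 and 1734. Prdx5 and Prdx6 were not analysed here.

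In the thioredoxin system all 6 genes were detected. Txn1, the cytosolic thioredoxin, gave 6704, 7236, 8570.3, 7715, 6381, 8061, 7453 and 8192, with mice 5 and 1 lowest. Txn2, its mitochondrial partner, ranged over 1117 to 1372 (median 1315) and Txnrd1, the cytosolic reductase, over 2715 to 3219.7 (median 2889). The other probe sets of Txn2 spread more, over 1198 to 2134 and 719 to 1460, and were highest in mouse 1. Txnrd2, the mitochondrial reductase, measured 202, 157, 195, 152, 165, 129, 131 and 141, and Txnrd3, the form known from testis, 390.1, 309.6, 229.5, 203, 270.3, 248, 285 and 169. Txnrd3 was highest in mouse 1 and lowest in mouse 8. Txnip, which binds thioredoxin and blocks it, stood at 5464, 6441, 6754, 6315, 7372, 7759, 6807 and 6994, lowest in mouse 1 and highest in mouse 6, a 1.42-fold range. Of the glutaredoxins, which reduce proteins joined to glutathione, Glrx gave 1064, 1178, 1013, 940.3, 967, 1069.8, 1148 and 987, the mitochondrial Glrx2 1778, 1618, 1598, 1693, 1879, 1546, 1863 and 1679.7, and the iron-sulphur form Glrx5 1083, 1318, 1303, 1179, 1382, 1303, 1399 and 1449. Their median SD was 0.12 (log2).

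Proteins with a thioredoxin domain were detected in 10 of 12 genes. Txndc17, a reductase of the TNF pathway, gave 7503, 6866, 7268, 7177, 6791, 6889, 6639 and 6975, a 1.13-fold range. Its other detected probe sets had ranges of 1.42-fold and 1.15-fold. Txndc11, a partner of dual oxidases, gave 1097, 735, 512, 679, 865, 687, 673 and 592, with mouse 1 highest and mouse 3 lowest. Txnl4b, a splicing protein, measured 253, 205, 237, 226, 256, 227, 211 and 215. The folding enzymes of the endoplasmic reticulum Txndc5 (893 to 1409, median 1034) and Txndc12 (1189 to 1730.2, median 1494) differed in their extreme mouse: mouse 1 was the highest for Txndc5 and the lowest for Txndc12. The rest were Txndc9 (3161 to 3945, median 3403), Txndc15 (3359.5 to 4469.9, median 4065), Txndc16 (874 to 1345, median 1122), Txnl1 (2400.3 to 3394, median 2951) and Txnl4a (834 to 1127, median 965).

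The regulators, with Nqo1 and Srxn1, had a median SD of 0.18 (log2). Nfe2l2, the transcription factor of the antioxidant response, gave 1278, 1378, 1530, 1659, 1380, 1432, 1438 and 1396, with mouse 1 lowest and mouse 4 highest. Keap1, the adaptor that marks NFE2L2 for degradation, gave 1514, 1408, 1213, 1264, 1219, 1094, 1276 and 1129.9, with mouse 1 highest and mouse 6 lowest. NQO1, a quinone reductase and a standard target of NFE2L2, was measured as Nqo1 at 697, 862, 1008, 834, 836, 1047, 762 and 936, with mouse 1 lowest and mice 6 and 3 highest. NFE2L2 is mainly controlled through its protein, which these arrays do not measure.

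**Figure D2:**
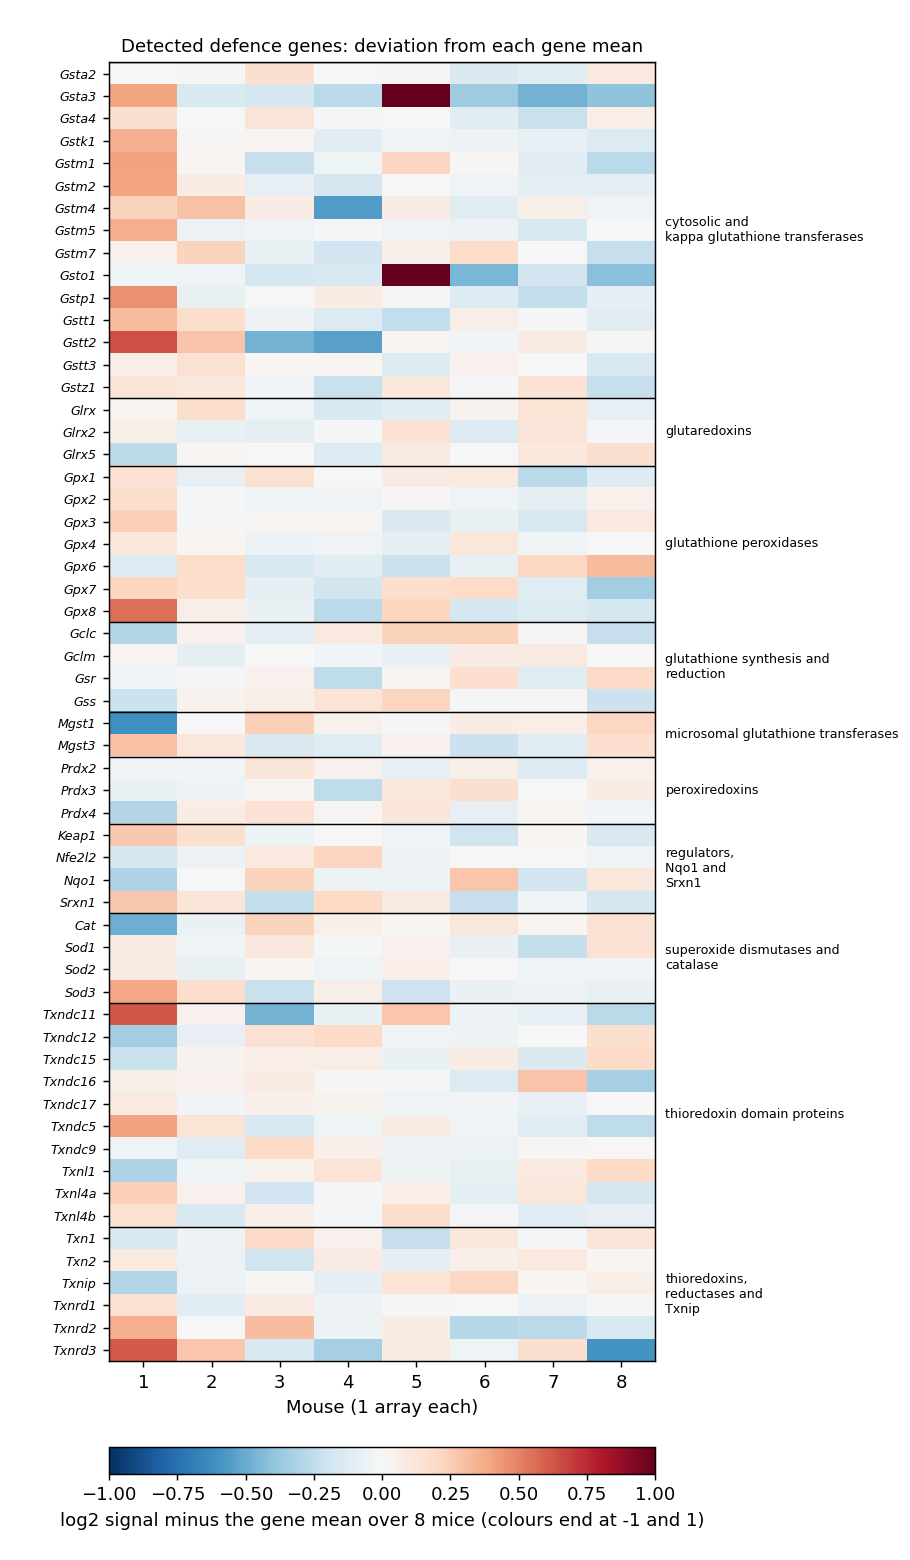
Deviation of the log2 signal from the mean of each gene over 8 mice (colour, red above and blue below the mean, colours end at -1 and 1) for the 58 detected genes (rows, grouped by role) in each mouse (columns). Gsta3 and Gsto1 are dark red in mouse 5, the strongest colours shown. The column of mouse 1 holds strong colours of both signs, with Gstt2, Txndc11 and Txnrd3 high and Mgst1 and Cat low.

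Mouse 5 carried the widest departures. Gsta3, an alpha class transferase, gave 147, 101, 99.6, 92.6, 299, 87.1, 80.3 and 84.7, so that mouse 5 was at 3.03 times the mean of the other mice, and Gsto1, the omega class transferase, gave 251, 252, 229, 233, 720.3, 189, 227 and 193, at 3.20 times. Of the 58 detected genes these 2 (3.45%) had a mouse over 2-fold from the mean of the others, in either direction. This held for 3.98% of all detected genes. In mouse 5 alone, 0.782% of all detected genes were over 2-fold above the mean of the others. Mouse 5 was named for these 2 genes, so that share is not a like comparison. Mgst2, a microsomal transferase and leukotriene synthase above the threshold on 5 arrays, gave 78.2, 83.9, 37.6, 51.5, 276, 69.2, 47.9 and 28.7, at 4.86 times the mean of the others, of which mice 3, 4 and 8 were below their thresholds. The next highest mouse read 147 for Gsta3 (mouse 1), 252 for Gsto1 (mouse 2) and 83.9 for Mgst2 (mouse 2). The second probe set of Gsto1 read 394 in mouse 5 and 67.5 to 241 in the others. The second probe set of Gsta3 read 63.5 in mouse 5, below its threshold, and 68.5 in mouse 6.

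The same array carried markers of tissues outside the cochlea. All 8 measured adipocyte genes were highest in mouse 5, with a summed signal of 9920.2 against 340.2 to 1574 in the others; 2 of them were above the threshold on all arrays, Lep and Retn were above it on none, and Ucp1 of brown fat read 2378 there and at most 237 elsewhere. Of 10 skeletal muscle genes 8 were highest in mouse 5, with a sum of 11491 against 260.5 to 1266 (Tnnc2 2807 against 27.2 to 329); 1 of the 10 was above the threshold on all arrays, and Ckm, Myh1 (22.9 in mouse 5) and Myh8 were above it on none. Of 9 genes of airway type mucosa, such as that of the middle ear, 7 were highest in mouse 5, with a sum of 19165 against 1289 to 7576; the ciliary regulator Foxj1 read 131 and Muc5ac, Scgb1a1 and Dnah5 were above the threshold on no array, against 2 of the 9 on all. The background threshold was also highest there (88.1). The part of these tissues in the signals of Gsta3, Gsto1 and Mgst2 was not tested. Against the adipocyte score described below, limma gave unadjusted p-values of 0.00293 for Gsto1 and 0.00505 for Gsta3 (adjusted p 0.470 and 0.618). Mouse 5 was also the highest on that score (3.34, next 0.94 in mouse 6). Both genes were named for their high mouse 5, so these p-values are no separate test of the relation. Without mice 5 and 6, the farthest on that score, Pearson's r fell from 0.79 to -0.18 for Gsto1 and from 0.77 to 0.03 for Gsta3, so the relations do not hold without them. Without mouse 5 alone r was -0.61 for Gsto1 and -0.18 for Gsta3, and without mouse 6 alone it was 0.93 and 0.88, so both relations rest on mouse 5.

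**Figure D3:**
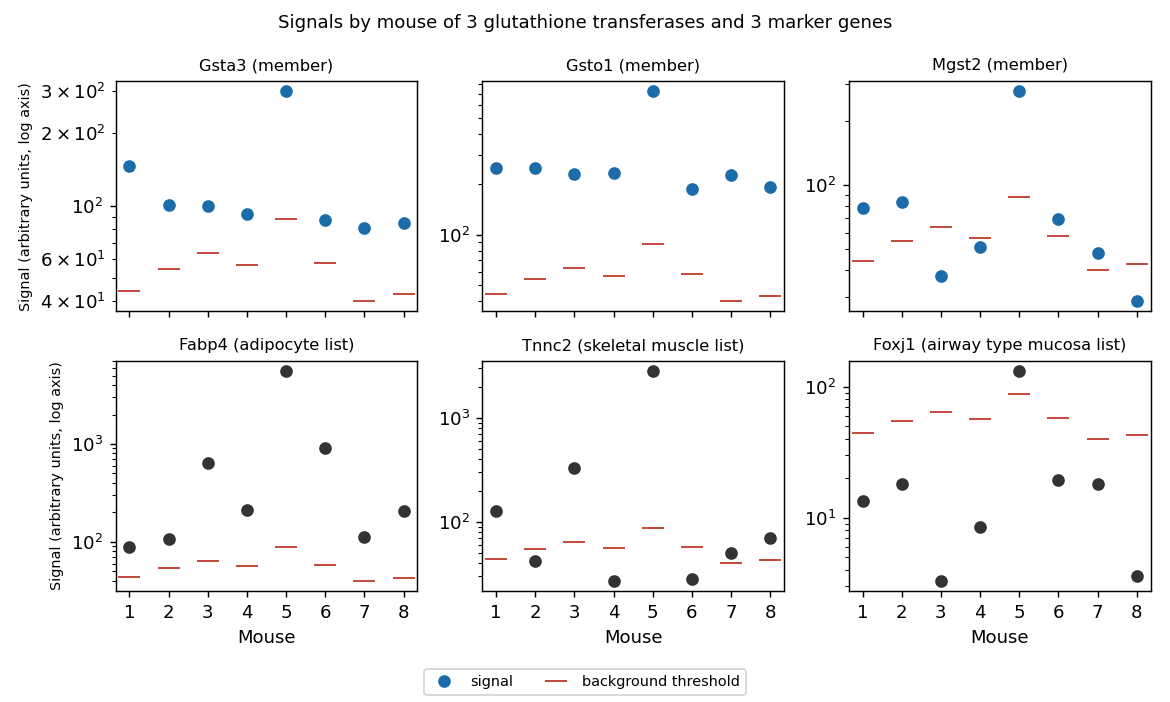
Signal (y axes, arbitrary units, log scale) of Gsta3, Gsto1 and Mgst2 (top) and of 1 marker each of adipocytes, skeletal muscle and airway type mucosa (bottom) in mice 1 to 8, with the background threshold of each array as a red line. Mouse 5 is the highest in all 6 panels, with Gsta3 at 299 and Gsto1 at 720.3.

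Mouse 1 stood apart in both directions. Of the 58 genes it was the highest for 24 (41.4%), against 34% of all detected genes, and the lowest for 12 (20.7%), against 24%. The first count depended on the scaling: it was 23 after quantile normalization (39.7%, against 34.2%) and 18 after scaling to the same median (31%, against 30.2%), so it lay near the share of all genes there. The second was 14 (24.1%, against 25%) and 12 (20.7%, against 26.5%). The median absolute deviation from the mean of a gene was 0.22 (log2) in mouse 1, for the defence genes and for all detected genes alike, and 0.059 to 0.13 in the other mice for the defence genes. High in mouse 1 were 8 of the 15 detected cytosolic and kappa transferases (Gsta4, Gstk1, Gstm1, Gstm2, Gstm5, Gstp1, Gstt1 and Gstt2), with Gpx2, Gpx3, Gpx7 and Gpx8. Of these, Gsta4 and Gpx7 were not highest in mouse 1 under all 3 scalings. Low, under all 3, were Cat, Mgst1, Gclc, Gss, Glrx5, Prdx4, Nfe2l2, Nqo1, Txnip, Txndc12, Txndc15 and Txnl1. A further detected probe set was also lowest in mouse 1 for Cat and Gss, and was lowest in mouse 4 for Gclc and Txnip. For Prdx4 and Txnl1 a further probe set was lowest in mouse 1 and another in mouse 6. The rest have no further detected probe set. For Cat, Mgst1, Gstk1, Gstm2, Gstm5 and Gstp1 the gap between mouse 1 and the next mouse passed Dixon's 95% critical value for 8 samples, on the log2 scale, as did that of mouse 5 for Gsta3 and Gsto1. Such gaps occurred in 8 of 58 genes (13.8%), against 12.8% of all detected genes.

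Separate probe sets of 1 gene could differ in mouse 1. Of 24 defence genes with at least 2 detected probe sets, 5 (20.8%; Gstm1, Sod2, Txndc17, Txnl1 and Txnl4a) had 1 probe set highest and another lowest in mouse 1. This held for 19.9% of 4845 such genes of the array, and for 1.22% to 4.05% in the other mice. One probe set of Sod2 read 2857 in mouse 1 and 1965 to 2271 in the others, and another read 2678 in mouse 1 and 3048 to 3933 in the others. Both probe sets of Cat were lowest in mouse 1, the second at 864 against 1119 to 1466. The central nervous system glia list had its highest sums in the same mouse and in mouse 6, at 10278 and 8808 against 5018 to 5716 in the others. Of its 9 genes, mouse 1 was the top for 4 and mouse 6 for 5, Mobp read 2331 and 2262 against 48.9 to 201, and Olig2 and Opalin were above the threshold on no array. Mouse 6 was the highest for 5 of 58 defence genes (8.62%, against 9.43%). After quantile normalization mouse 6 was the highest for 10 (17.2%, against 10.4%), and after scaling to the same median for 8 (13.8%, against 10.6%). Sums of other cell lists were also highest in mouse 1: spiral ganglion neurons (49102, next 45507; 15 of 18 genes detected), Schwann cells (41832, next 39385; 9 of 10), strial marginal cells (34151, next 31797; 6 of 6), endothelium (8129.8, next 6901; 8 of 10) and spiral ligament fibrocytes (92689, next 92083; 10 of 10). Sums of macrophages, bone cells, strial intermediate cells and hair cells were highest in mice 5, 6, 4 and 8, in that order. By the scores described below, mouse 1 was the highest for spiral ganglion neurons (0.56). Schwann cells scored highest in mouse 4 (0.21, mouse 1 0.16) and spiral ligament fibrocytes in mouse 3 (0.082, mouse 1 0.071). The mouse 1 scores of erythroid cells (-1.09) and neutrophils (-1.18) were the lowest after those of mouse 7. The part of these cells in the mouse 1 values was not tested.

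Over all mice, the brightest pair of probe sets of a gene was compared across mice by the exact permutation test of Pearson's r. The median r was 0.50 for the 24 defence genes and 0.34 for all 4845 genes. One defence gene, Cat, passed Benjamini-Hochberg adjustment over all genes tested (4.17%, against 8.01%), with r = 0.93, an exact p of 0.00367, an adjusted p of 0.0481, Spearman's rho = 0.74 (exact p 0.0458) and r = 0.56 without the 2 mice farthest from the median. Cat passed without mouse 8, together with Gstm1, and did not pass without any other single mouse: no defence gene passed without mouse 1, 2, 3, 5, 6 or 7, and without mouse 4 the 1 gene that passed was Srxn1. With r above 0 and an unadjusted exact p under 0.05 there were 8 (33.3%, against 24%): Cat, Gstm1, Srxn1, Txnrd3, Prdx4, Sod1, Txndc5 and Glrx2. The shares at an adjusted p counted either sign of r. Below 0 lay r for 4 genes (16.7%, against 29.8%), with Txnl4a at -0.70, Txnl1 at -0.64, Sod2 at -0.39 and Txndc17 at -0.33.

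**Figure D4:**
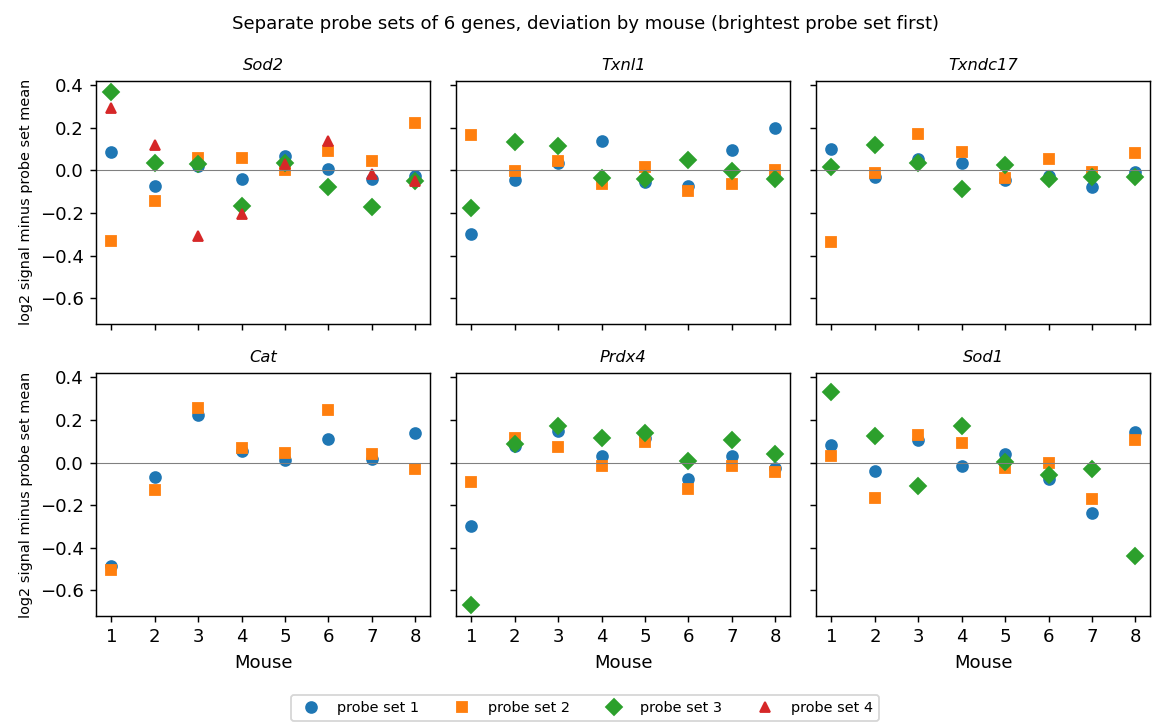
Deviation of the log2 signal from the mean of a probe set (y axis) in mice 1 to 8 for the detected probe sets of 6 genes, numbered from the brightest. The probe sets of Cat fall together in mouse 1 and those of Prdx4 are all below 0 there, whereas those of Sod2, Txnl1 and Txndc17 part in mouse 1; the third probe set of Sod1 differs from its other 2 in mouse 8.

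Mouse 7 was the lowest for 10 of the 58 genes (17.2%; Gpx1, Gpx2, Gpx3, Gsta3, Gsta4, Gstm5, Gstp1, Prdx2, Sod1 and Txndc17), against 7.94% of all detected genes. The count depended on the scaling: it was 3 after quantile normalization (5.17%, against 7.09% of all detected genes) and 14 after scaling to the same median of detected genes (24.1%, against 13.9%), with Gpx1, Gsta3 and Gstm5 lowest under all 3 scalings. Of the 8 cell scores described below, 4 were also lowest in mouse 7, those of erythroid cells, neutrophils, spiral ligament fibrocytes and adipocytes, and their part in these values was not tested.

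To see whether the defence genes followed the cell make-up of a sample, each detected gene was set against 8 scores, each the mean log2 deviation of the marker genes of a cell type, and against Nfe2l2 and Txnip. By limma with Benjamini-Hochberg adjustment over all detected genes, 0 defence genes passed for any of these 10 measures, and 0 passed by the exact permutation test, as did 0% of all detected genes; with 8 mice a single gene cannot reach an adjusted p below 0.282 in that test. Among all detected genes limma called 1.03% with spiral ganglion neurons, 0.079% with erythroid cells, 0.0439% with bone cells, 0.0351% with adipocytes and 0% with neutrophils, Schwann cells, macrophages, spiral ligament fibrocytes, Nfe2l2 or Txnip. At an unadjusted limma p under 0.05, the defence genes numbered 1 with erythroid cells (Gpx1; 1.72%, against 3.71%), 2 with neutrophils (Nqo1 and Txndc15; 3.45%, against 2.76%) and 2 with macrophages (Gpx1 and Gsta3; 3.45%, against 3.59%). They numbered 4 with neurons (Keap1, Nqo1, Srxn1 and Txnip; 6.9%, against 10.8%), 1 with Schwann cells (Srxn1; 1.72%, against 3.23%), 0 with bone cells (against 5.05%) and 2 with adipocytes (Gsta3 and Gsto1; 3.45%, against 3.32%).

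With spiral ligament fibrocytes, the connective cells of the lateral wall, 5 genes had an unadjusted limma p under 0.05 (8.62%, against 3.89%): Gpx3, Gsta4, Sod1, Prdx2 and Gstp1. For Gpx3, r was 0.81 (exact permutation p 0.0126) and rho 0.86 (exact p 0.0107), with an adjusted limma p of 0.691 and r = 0.59 without mice 5 and 7. For Gsta4, r was 0.78 (exact p 0.0212) and rho 0.69 (exact p 0.0694), with an adjusted limma p of 0.715 and r = 0.67 without those mice. For Sod1, r was 0.74 (exact p 0.0289) and rho 0.67 (exact p 0.0831), with an adjusted limma p of 0.865 and r = 0.69 without them. None of the 3 passed after adjustment. These 5 genes are among those lowest in mouse 7, whose place depended on the scaling.

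With neurons, Srxn1 had r = 0.79 (exact permutation p 0.00417), rho = 0.95 (exact p 0.00114), an adjusted limma p of 0.263 and r = 0.83 without mice 1 and 6. Mouse 6 was lowest on the neuron score and near the bottom for Srxn1 (1664). With neutrophils, Nqo1 had r = 0.80 (exact p 0.0120), rho = 0.88 (exact p 0.00724), an adjusted limma p of 0.960 and r = 0.84 without mice 1 and 7. With erythroid cells, Prdx2 had r = 0.68 (exact p 0.0668) and an adjusted limma p of 0.995, and r = 0.16 without mice 3 and 7.

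The targets of NFE2L2 were compared with the level of Nfe2l2 itself. At an unadjusted limma p under 0.05 there were 11 of the 57 other defence genes (19.3%, against 18%): Cat, Gpx8, Gstm2, Gstm4, Gstt2, Mgst1, Mgst3, Txndc11, Txndc12, Txnl1 and Txnrd3. None is among the standard targets Nqo1, Gclc, Gclm, Srxn1 and Txnrd1, whose unadjusted limma p ran from 0.291 (Nqo1) to 0.984 (Gclm). The slope of Gstt2 on Nfe2l2 was -3.18 ± 0.475 (SE) log2 units per log2 unit, with r = -0.94 (exact permutation p 0.00062), rho = -0.86 (exact p 0.0107) and r = -0.89 without mice 1 and 4. Its limma p adjusted over all detected genes was 0.126, and it passed when p-values were adjusted over all 10 measures together. With Txnip there were 13 of 57 (22.8%, against 22.4%): Cat, Glrx5, Gpx3, Gstk1, Gstm2, Gstm5, Gstp1, Keap1, Mgst1, Nqo1, Sod3, Srxn1 and Txndc5. Keap1 had r = -0.88 (exact p 0.00347), rho = -0.79 (exact p 0.0279), an adjusted limma p of 0.125 and r = -0.59 without mice 1 and 6. Without mouse 5, 1 defence gene passed the adjusted limma test with Txnip (Gstp1). The shares of all detected genes that passed under these alternatives, for Nfe2l2 and for Txnip, were not computed. Mouse 1 is an extreme for Nfe2l2, Txnip, Gstt2 and Keap1 alike.

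The neighbouring genes of the pathway were measured as well. All 11 genes of NADPH supply were detected, among them Idh1, the cytosolic isocitrate dehydrogenase (4953 to 6665, median 6226), with Me3, a mitochondrial malic enzyme, as the most variable (104 to 243, median 148). Of 12 genes of glutathione precursor supply and breakdown 9 were detected. The cystine transporter chain Slc3a2 ranged over 2931 to 3518 (median 3333), Ggt7 was low in mouse 6 (58.7 to 179, median 155), and Ggt5 was above the threshold on no array (10.1 to 38.7, median 24.1). The cystine transporter Slc7a11 was above it on 7 arrays (81.8 to 179.6, median 144).

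Of 13 other NFE2L2 targets 12 were detected. Fth1, the ferritin heavy chain, ranged over 14476 to 18578 (median 16032), and Hmox1, heme oxygenase 1, over 266 to 499.5 (median 376) as the most variable. Of 12 partners and repressors of NFE2L2 10 were detected, with Nfe2l1 at 3299.8 to 3979 (median 3505) and the small Maf protein Maff as the most variable (89.2 to 214, median 164); the probe set of Rbx1 was above the threshold on no array (13.3 to 51.4, median 35.4). Of 10 measured oxidant sources 7 were detected. Cyba, the p22phox subunit, ranged over 1367 to 1831 (median 1435), Noxo1, the organiser of the vestibular and cochlear NADPH oxidase NOX3, over 434 to 629 (median 498), and Ncf4, a phagocyte subunit, varied most (53.0 to 179, median 90.8); Duox1 (2.5 to 20.9, median 7.1) and Xdh (1.9 to 50.8, median 29.9) were above the threshold on no array.

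Repair genes were detected in 16 of 17 cases. Selenop, the selenium carrier, ranged over 9262 to 11948 (median 10468) and Msrb3, a methionine sulfoxide reductase known as a hereditary deafness gene, over 2499 to 3132 (median 2904). Selenow varied most (4129 to 7636, median 5020.5), with mouse 1 highest. Of 4 metallothioneins, the metal-binding proteins that also take up oxidants, Mt1 (3303 to 4518, median 3599) and Mt2 (2599 to 4406, median 3706) were detected and Mt4 was above the threshold on no array (3.7 to 25.2, median 16.2). The median SD of the detected genes ran from 0.11 (log2, NFE2L2 partners and repressors) to 0.28 (precursor supply and breakdown) over these 7 lists, beside 0.15 for the defence genes.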

How the data were processed

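The deposited values are linear intensities, 1 per probe set and array, computed by the authors with MAS5 per the submitters' processing notes; no version is stated in the sources used here. With the top and bottom 2% of its values removed, every array had a mean of 500. The table held 0 columns of other samples, and no array was left out. Of 45101 probe sets, 932 name several genes and 9211 none in the platform annotation, and these were not used.

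A gene was read by the probe set with the highest mean log2 signal (signals under 1 set to 1; _x_at probe sets only where a gene had no other). The background threshold came from 138 probe sets of 113 genes; detected means above it on all 8 arrays. A score used the detected genes of its list; for erythroid cells and adipocytes, with fewer than 3, it used genes above the threshold on at least 4 arrays, a choice made after seeing the data. limma 3.58.1 (eBayes with trend, R 4.3.3) fitted the detected genes on each score, two-sided, with Benjamini-Hochberg adjustment. The tests of r and rho went over all 40320 pairings of mice, two-sided (numpy 2.4.6, with ranks from scipy 1.17.1). The fits were checked on simulated data. The number of arrays limits the precision.

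All 8 values are given for Gsta4, Sod1, Nfe2l2, Keap1 and Txnip, for the detected genes with the highest and lowest mean signal and the largest SD in each role, and for the 10 with the largest SD; of each pathway list, a gene of high signal, the most variable detected gene and those above the threshold on no array are named. Other genes and scores named fall outside this rule and were picked with their values known. The genes, lists and tests were chosen with earlier results of these data known. RefSeq promoters were matched by symbol for 61 of 68 genes.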

Additional observations from a re-analysis of the deposited data

Results flagged for a closer look

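In 8 of 58 detected defence genes the highest or the lowest mouse was farther from the nearest of the others, as a share of the whole range of log2 signals, than Dixon's 95% critical value for 8 samples. Chance gives about 1 gene in 20, and 12.8% of all detected genes showed such a gap. Mouse 1 was the high mouse for Gstm5 (0.707 of the range), Gstk1 (0.667), Gstm2 (0.575) and Gstp1 (0.551), all glutathione transferases. It was the low mouse for Mgst1, a transferase of the endoplasmic reticulum and mitochondria (0.704), and for Cat, the peroxisomal catalase (0.59). Mouse 5 was the high mouse for Gsto1 (0.784) and Gsta3 (0.541), the array that also carried the adipocyte, skeletal muscle and airway type mucosa markers. Both detected probe sets of Cat and of Gsto1 showed their mouse at the same end. The others could not be checked in this way. Gstm5, Gstk1, Gstm2 and Gstp1 have 1 probe set each, and the second probe set was above the threshold on no array for Mgst1 and on 1 for Gsta3.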

How the results depend on the processing

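No paired analysis was possible because the 8 mice form 1 group. Over the 6 alternatives the number of detected defence genes ran from 50 to 60 (58 without each mouse in turn). It was 50 with a threshold at the 99th percentile, where 48.2% of all genes were detected, and 60 with detection on at least 4 arrays, where 69.7% were. The median SD ran from 0.144 to 0.179 (0.120 to 0.166 without each mouse in turn). That of all detected genes ran from 0.159 to 0.192 over the 6 alternatives. The count of genes whose probe sets agreed was 1 and was least stable. It was 0 by Spearman's correlation, 0 without _x_at probe sets (an alternative added after seeing the data) and 0 with detection on at least 4 arrays. It was 2 after quantile normalization, 3 with the same median of detected genes, and 0 to 2 without each mouse in turn. The cause was not tested, and the shares of all genes under these alternatives were not computed. The count moving with Nfe2l2 was 1 (Gstt2) when p-values were adjusted over all 10 measures together. The count moving with Txnip was 0 to 1 without each mouse in turn (Gstp1 without mouse 5). For Nfe2l2 and Txnip too, the shares of all detected genes passing under these alternatives were not computed. The counts for the 8 cell scores were 0 under every alternative run, of which the exact permutation test could hardly give another count, since a single gene cannot reach an adjusted p below 0.282 there; the adipocyte score could not be formed with a threshold at the 99th percentile, and probe sets cannot be compared after averaging them.

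The ratio of mouse 5 to the mean of the others was 2.26 to 3.03 for Gsta3 over the settings with every mouse (2.26 with the mean of all probe sets). It was 3.17 to 3.21 for Gsto1 and 4.67 to 4.86 for Mgst2. Changes of the detection threshold and a constant added before the logarithm could not move these ratios. Averaging probe sets could not move that of Gsto1, whose second is an _x_at probe set left out there, or that of Mgst2, which has 1. In that second probe set of Gsto1, mouse 5 was at 2.49 times the mean of the others. Genes near the background threshold, such as Gsta3 and Mgst2, are measured with less precision than bright ones, and 8 arrays limit the precision of every SD. With 1 group, differences between mice hold biology, dissection and assay together.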
